A study of Homo sapiens with 7 samples.

Results

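Gene expression was compared between 5 arrays of human dermal fibroblasts with an introduced lamin and 2 arrays of control fibroblasts, to find the genes that every lamin array held on the same side of both controls. Of 12726 genes tested, 1517 (11.9%) had all 5 lamin arrays above both controls and 1560 (12.3%) had all 5 below, together 3077 (24.2%). Each gene is shown by its brightest probe set on average, taken from probe sets of a single gene that reached a signal of 100 on some array, and values were compared as log2(signal + 16).

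The labels give the same primary dermal fibroblast strain for all 7 arrays, with RNA taken at passage 10 from cells grown in low oxygen. The lamin arrays were 1 of cells overexpressing progerin, 1 of progerin cells treated with FTI, 1 of cells overexpressing prelamin A, 1 of prelamin A cells treated with FTI and 1 of cells overexpressing prelamin A together with ZMPSTE24. FTI is the farnesyltransferase inhibitor L-744832, given at 10 nM for 48 hours. The control arrays are labelled as the fibroblasts alone, and the labels do not say whether these cells carried a virus without a lamin. According to the study's methods, the lamins were flag-tagged and delivered by lentivirus under a CMV promoter. The study's growth experiments used a control line with a GFP lentivirus, while it describes the array comparison as against wild-type fibroblasts. Unless the control arrays were of GFP cells, the viral transfer and the lamin cannot be told apart on any of the 5 lamin arrays. The cells were bulk cultures, each condition with a lamin had 1 array, and a change of RNA per cell cannot be told apart from a change in the mix of cells.

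Lamin A is made as prelamin A, which is farnesylated at its C terminus and then cleaved by the metalloprotease ZMPSTE24 to give the mature protein of the nuclear lamina. Progerin, the product of the progeria mutation, lacks the cleavage site and keeps its farnesyl group, and FTI blocks the attachment of that group. Fibroblasts make and remodel the collagenous matrix of the dermis, and the lamina bears on how their chromatin is arranged.

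The genes of the introduced proteins were not called. The LMNA signal was 9300.3 and 14029 on the controls, 16289 and 15240 on the progerin and progerin + FTI arrays, and 8498, 9814 and 9488 on the 3 prelamin A arrays, which overlaps the controls with a log2 difference of 0.00 ± 0.31 (SE, adjusted p = 0.998). ZMPSTE24 was 4841 and 4973 on the controls and 5779 on the array with introduced ZMPSTE24, within the 5073 to 6119.5 of the lamin arrays, all 5 of which lay narrowly above both controls with a log2 difference of 0.15 ± 0.14 (SE, adjusted p = 0.639). Whether these probe sets lie within the introduced sequences was not settled here, so they do not check the labels, and the names used below are those of the labels. FOXQ1, the forkhead factor the study followed, was 205 and 449 on the controls and 1401, 773, 7676, 1225 and 969 on the lamin arrays, all above both controls, with a log2 difference of 2.32 ± 0.83 (SE, adjusted p = 0.209). The study chose it for a rise in both lines that was reduced by FTI and by ZMPSTE24, and measured this by RT-qPCR too. A reduction of that kind counts as spread in the test used here, so the test does not address the study's filter.

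All 12 fibroblast markers examined, among them COL1A1, COL1A2, DCN, LUM, VIM and THY1, were measured on every array and none passed the test. Their summed signal was 320220 to 352060 on the controls and 283020 to 318280 on the lamin arrays. COL3A1, PDGFRA and P4HB lay below both controls on every lamin array, with log2 differences of -0.70, -0.79 and -0.51 (adjusted p = 0.420, 0.0526 and 0.234). The other markers overlapped the controls. The median log2 signal of the genes tested lay between 9.35 and 9.44 on all 7 arrays, and the correlation over genes was 0.959 between the controls and 0.916 to 0.985 for all pairs of arrays. The actin 3′ to 5′ signal ratio, a measure of RNA integrity, was 1.24 and 1.06 on the controls and 1.12 to 1.62 on the lamin arrays, highest on the prelamin A array. Its part in the results was not tested.

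Tested across all genes, 365 (2.87%) differed between the 5 lamin arrays and the 2 controls at an adjusted p under 0.05 (limma, Benjamini-Hochberg), 257 (2.02%) higher and 108 (0.849%) lower with the lamins. All 365 had every lamin array on the same side of both controls. The other 1260 genes above and 1452 below did not pass the test. Called genes changed by a median of 1.75 when higher and -1.23 when lower on the log2 scale, against a median difference of -0.03 over all genes. The change was over 2-fold for 230 of the 257 and 81 of the 108, and over 4-fold for 100 and 24. A looser rule of a fold over 2 and an unadjusted p under 0.05 gave 535 (4.20%) higher and 267 (2.10%) lower. Nothing in the labels says that the controls were separate cultures, so the p-values cover only the variation among these 7 arrays, which may be technical, and differences between the 5 lamin conditions count as spread in this test. The 5 lamin arrays carry 2 introduced lamins, and the study treated its progerin and prelamin A lines with FTI. The test counts these arrays as 5 separate samples, so the p-values do not cover variation between transduced lines.

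**Figure D1:**
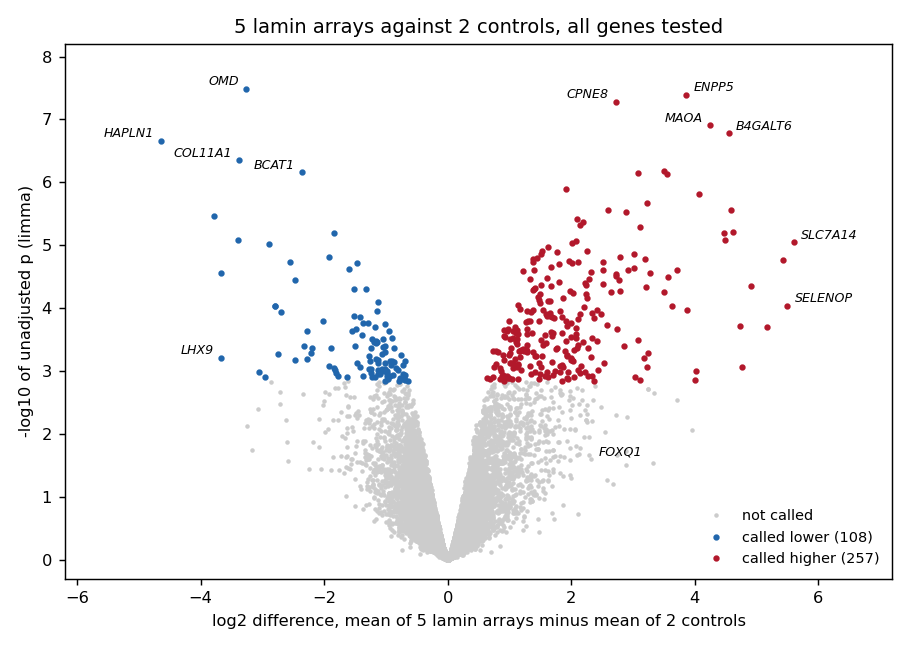
Each point is 1 gene, with the log2 difference between the mean of the 5 lamin arrays and the mean of the 2 controls on the x axis and -log10 of limma's unadjusted p on the y axis; red and blue mark the 257 and 108 genes called at an adjusted p under 0.05. The red points reach a log2 difference of 5.60 (SLC7A14) and the blue points -4.64 (HAPLN1), and FOXQ1 lies at 2.32 among the genes not called. Differences between the 5 lamin conditions count as spread in this p.

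Many of the rises started from dim signals. Both controls were under 100 for 108 of the 257 genes called higher and for 304 of the 1517 above, and all 5 lamin arrays were under 100 for 17 of the 108 called lower. Such rises entered the test only because a lamin array reached 100, and such falls only because a control did. With 5 lamin arrays and 2 controls, this filter favours dim genes that rose. The share of all genes with both controls under 100 was not counted. The shares of called list members given below carry the same limit. A difference on log2(signal + 16) understates the change of such dim genes. The 2 controls were over 2-fold apart for 29 of the genes called higher and 8 of those called lower, against 1181 of all 12726.

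At the border of the rule the groups nearly touched. TBC1D20 was 1794 and 2129 on the controls and 1359.5 to 1794 on the lamin arrays, and GNE was 1175 and 1281 against 808 to 1174, both just inside. TPCN1 was 493 and 608 against 608 to 679.5 and FAM120AOS was 1613 and 1726 against 1256 to 1613, both just outside. A gap of at least 1 on the log2 scale between the nearest lamin array and the nearest control was found for 165 genes above (1.30%) and 40 below (0.314%).

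The largest rises were mostly in genes that were dim in the control fibroblasts. Signals of lamin arrays are given here and below in the order progerin, progerin + FTI, prelamin A, prelamin A + FTI and prelamin A + ZMPSTE24. SLC7A14, a lysosomal protein of the cationic amino acid transporter family, was 4.41 and 15.3 on the controls and 1636, 1221, 489, 1099.5 and 2392 on the lamin arrays. The log2 difference was 5.60 ± 0.54 (SE, adjusted p = 0.00392). SELENOP, which carries selenium between tissues, was 201 and 10.0 on the controls and 2265, 2418, 5056, 4345 and 3683 with the lamins. Its controls lay far apart, with every lamin array well above the higher one, and the log2 difference was 5.50 ± 0.74 (SE, adjusted p = 0.0115). TMTC1, an enzyme of the endoplasmic reticulum that adds mannose to cadherins, was 55.9 and 5.36 on the controls and 1761, 1792, 787, 1762 and 2970.1 with the lamins, a log2 difference of 5.43 ± 0.57 (SE, adjusted p = 0.00493).

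Cytoskeletal and vesicle genes best known from neurons and secretory cells were among them. STMN2, a tubulin-binding protein of growing axons, had signals of 279.7 and 1668 on the controls and 17687, 16447, 29845, 23296 and 20772 with the lamins. It was already well measured in the controls, and the log2 difference was 4.90 ± 0.59 (SE, adjusted p = 0.00727). DCLK1, a microtubule-bound kinase, was 32.7 and 13.2 against 821, 476, 1779, 4735 and 1262, lowest with progerin + FTI and highest with prelamin A + FTI, with a log2 difference of 5.16 ± 0.77 (SE, adjusted p = 0.0175). RAB27B, a GTPase of secretory vesicles, was 152 and 10.5 against 839, 822, 5301, 2068 and 2427, with the progerin arrays lower than the prelamin A arrays and a log2 difference of 4.76 ± 0.90 (SE, adjusted p = 0.0387). The call of DCLK1 was lost without either control, with an adjusted p of at most 0.148 over the 7 fits that left out an array. RAB27B kept its call in 2 of those 7 fits, with an adjusted p of up to 0.243.

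Lipid, signal and membrane genes made up the rest. CD36, a receptor for fatty acids and oxidised lipoproteins, rose from 64.3 and 28.7 on the controls to 776, 664, 2645, 1764 and 4066, a log2 difference of 4.74 ± 0.71 (SE, adjusted p = 0.0174), lost without either control (adjusted p of at most 0.148). B4GALT6, which makes lactosylceramide, was 19.7 and 5.39 on the controls and 519, 529, 722, 775 and 659 with the lamins. These 5 values were close to each other, and the log2 difference was 4.55 ± 0.25 (SE, adjusted p = 0.000421). MPPED2, a metallophosphoesterase, was 1.89 and 13.1 against 332 to 818 (4.62, adjusted p = 0.00322), and PTGFRN, a membrane protein that dampens the prostaglandin F2 receptor, was 9.500 and 59.1 against 726 to 1308 (4.47, adjusted p = 0.00322, both as log2 differences). RSPO3 and SFRP1, the remaining members of the 12, are described with the WNT genes.

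**Figure D2:**
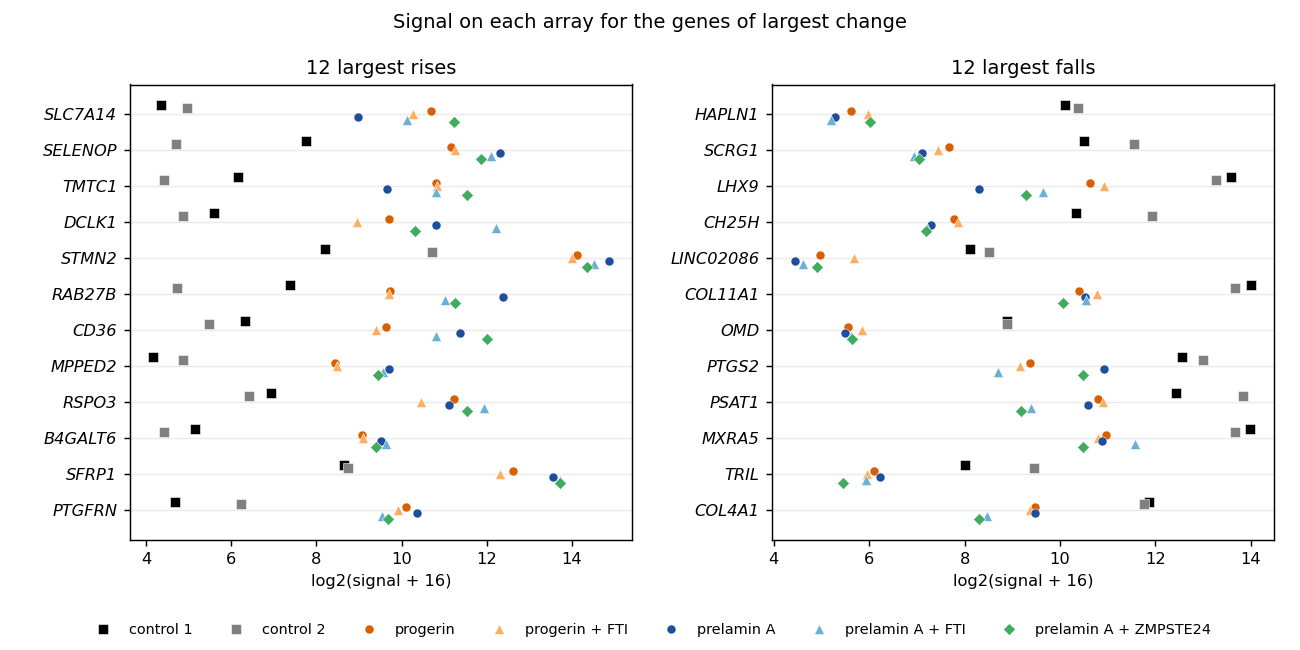
Signal on each array as log2(signal + 16) for the 12 called genes of largest rise (left) and the 12 of largest fall (right), 1 marker per array, with squares for the 2 controls. The genes were chosen among those with all 5 lamin arrays on the same side of both squares. The gap between the nearest lamin array and the nearest control is 3.29 for STMN2 and 4.09 for HAPLN1, and narrowest on the right for PSAT1 at 1.52.

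The largest falls were led by cartilage and matrix genes that were bright in the controls. HAPLN1, the link protein that fastens proteoglycans to hyaluronan, was 1092 and 1324 on the controls and 32.8, 46.6, 23.0, 20.5 and 49.0 with the lamins. All 5 lamin arrays were near background, and the log2 difference was -4.64 ± 0.27 (SE, adjusted p = 0.000466). SCRG1, a secreted protein of cartilage-forming cells, was 1432 and 2989 on the controls and 188, 158, 121, 106 and 116 with the lamins, a log2 difference of -3.79 ± 0.32 (SE, adjusted p = 0.00243). MXRA5, a matrix protein with leucine-rich and immunoglobulin repeats, was 16268 and 13002 against 1979.9, 1754, 1867, 3024 and 1412, a log2 difference of -2.89 ± 0.28 (SE, adjusted p = 0.00392). The gap between the nearest lamin array and the nearest control was 4.09 for HAPLN1, 2.83 for SCRG1 and 2.10 for MXRA5 on the log2 scale.

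The other large falls included a transcription factor, an oxysterol enzyme and a receptor partner. LHX9, a LIM homeobox factor, was 12235 and 9943 on the controls and 1571, 1932, 300.1, 779 and 606 with the lamins, highest on the progerin arrays among them, with a log2 difference of -3.68 ± 0.66 (SE, adjusted p = 0.0319). CH25H, which makes 25-hydroxycholesterol, was 1277 and 3875 against 202, 217, 141, 132.8 and 131, a log2 difference of -3.66 ± 0.41 (SE, adjusted p = 0.00567). TRIL, an accessory protein of TLR4, was 243 and 682 against 27.8 to 58.3 (-2.80, adjusted p = 0.0115), and the long non-coding RNA LINC02086 was 262 and 347 against 5.77 to 35.0 (-3.39, adjusted p = 0.00392), both as log2 differences. LHX9 lost its call without either control, without prelamin A + FTI and without prelamin A + ZMPSTE24, with an adjusted p of at most 0.173.

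CPNE8, MAOA and SMOC2 were among the rises of smallest p. CPNE8, a calcium-dependent phospholipid-binding protein, was 19.5 and 22.2 on the controls and 239, 236, 225, 215 and 223 with the lamins, a log2 difference of 2.73 ± 0.13 (SE, adjusted p = 0.000223). MAOA, the monoamine oxidase of the outer mitochondrial membrane, was 18.1 and 18.4 against 512, 509, 621, 827 and 765, a log2 difference of 4.25 ± 0.23 (SE, adjusted p = 0.000394). SMOC2, a matricellular calcium-binding protein, was 27.2 and 17.6 against 381, 343, 595, 367 and 432, a log2 difference of 3.50 ± 0.23 (SE, adjusted p = 0.000836). ENPP5 and, among the falls, OMD and BCAT1 also had some of the smallest p and are described with their groups.

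Enzymes that modify collagen were among the falls, while the main dermal collagen chains did not pass the test. The gene lists here and below were chosen with earlier results of these data known, so their shares are descriptions only. Of 24 tested genes for collagen processing, 4 fell (16.7% against 0.849% of all genes) and 0 rose, 16 lay below both controls with all 5 lamin arrays (66.7% against 12.3%) and 0 above, and the median log2 difference was -0.71. The called members were 3 proline hydroxylase genes and a partner of lysine hydroxylases. P3H1, the prolyl 3-hydroxylase, was 3535 and 3985 on the controls and 1494, 1751, 1152, 1014 and 1084 with the lamins, a log2 difference of -1.55 ± 0.24 (SE, adjusted p = 0.0187). P3H4, a partner of the enzymes that hydroxylate collagen lysines, was 1431 and 2075 against 654, 667, 438, 277 and 426, a log2 difference of -1.84 ± 0.35 (SE, adjusted p = 0.0391). P4HA2 and P4HA1, the catalytic subunits of prolyl 4-hydroxylase, were 15655 and 17852 against 7308 to 9315 (-1.02, adjusted p = 0.0161) and 12722 and 12513 against 6786 to 8394 (-0.71, adjusted p = 0.0462), as log2 differences.

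The calls of these enzymes depended on single arrays. P3H1 and P4HA2 lost theirs without either control (adjusted p of at most 0.151 and 0.141), P3H4 kept its call in 2 and P4HA1 in 0 of the 7 fits that left out an array (0.0733 to 0.228 for P4HA1). The list's median was -0.71 without control 1 and -0.69 without control 2. Among members not called, the collagen chaperone SERPINH1 was 12642 and 20662 on the controls and 3714 to 7310.3 with the lamins (-1.67, adjusted p = 0.0517), and the lysyl hydroxylase PLOD2 was 10956 and 8425 against 4997 to 7709 (-0.65, adjusted p = 0.162), all below both controls.

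Of 24 collagen chains tested, 2 fell (8.33% against 0.849% of all genes) and 1 rose (4.17% against 2.02%). All 5 lamin arrays lay below both controls for 10 (41.7% against 12.3%) and above for 1 (4.17% against 11.9%). COL11A1, a chain that sets the diameter of collagen fibrils, was 16514 and 13105 on the controls and 1338, 1749, 1469, 1478 and 1052 with the lamins, a log2 difference of -3.38 ± 0.22 (SE, adjusted p = 0.000811). COL4A1, a chain of basement membrane collagen, was 3724 and 3458 against 702, 645, 693, 341 and 298, a log2 difference of -2.80 ± 0.38 (SE, adjusted p = 0.0116), lost without either control (adjusted p of at most 0.0886). The transmembrane collagen COL13A1 went the other way, at 695 and 923 on the controls and 3448, 3278, 4416, 3407 and 4139.6 with the lamins, a log2 difference of 2.19 ± 0.19 (SE, adjusted p = 0.00273). The dermal chains COL1A1 and COL1A2 overlapped the controls, with log2 differences of -0.19 (adjusted p = 0.590) and -0.22 (adjusted p = 0.523). COL3A1, another dermal chain, lay below both controls on every lamin array but was not called. It was 35289 and 38721 against 11993 to 34131 (-0.70, adjusted p = 0.420, as a log2 difference).

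Other matrix genes split between the directions. OMD, a small proteoglycan of bone and connective tissue, was 459 and 458 on the controls and 31.2, 41.3, 29.2, 33.0 and 33.6 with the lamins, a log2 difference of -3.26 ± 0.15 (SE, adjusted p = 0.000223). ASPN, a close relative that binds collagen and TGF-beta, was 1966 and 1862 against 398, 486, 714, 239 and 248, a log2 difference of -2.27 ± 0.41 (SE, adjusted p = 0.0327), kept in 1 of the 7 fits that left out an array. FMOD, another member of the same family, rose from 1582 and 988 to 4188, 4244, 4696, 4492 and 4479, a log2 difference of 1.81 ± 0.19 (SE, adjusted p = 0.00493). These 3 were the called members among 10 small leucine-rich proteoglycans tested, 20% lower and 10% higher against 0.849% and 2.02% of all genes.

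Among 14 genes of hyaluronan and its binding proteins, HAPLN1 fell and ITIH5, a heavy chain that links to hyaluronan, rose from 22.2 and 44.3 to 205 to 466 (2.65, adjusted p = 0.00809). Among 18 elastic fibre genes, FBLN2 rose from 437 and 543 to 2683, 2293, 3137, 2077 and 1881 (2.25, adjusted p = 0.00457) and FBN2, the fibrillin of developing tissue, fell from 7556 and 6295 to 2397, 2265, 3505, 2773 and 2515 (-1.37, adjusted p = 0.0160). Of 24 adhesive glycoproteins MXRA5 and SPOCK1, a testican, fell, the latter from 14298 and 13052 to 3868 to 7215 (-1.50, adjusted p = 0.0253), and of 22 metalloproteinases and their inhibitors TIMP3 rose from 5145 and 7281 to 13280 to 17681 (1.28, adjusted p = 0.0181). All these values in brackets are log2 differences. Called higher and lower were 7.14% and 7.14% of the hyaluronan genes and 5.56% and 5.56% of the elastic fibre genes. Called lower were 8.33% of the adhesive glycoproteins, and called higher 4.55% of the metalloproteinases and inhibitors. Of all genes 2.02% were called higher and 0.849% lower. FBN2 and SPOCK1 lost their calls without either control, SPOCK1 also without 4 of the lamin arrays, and ITIH5 and TIMP3 without control 1.

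**Figure D3:**
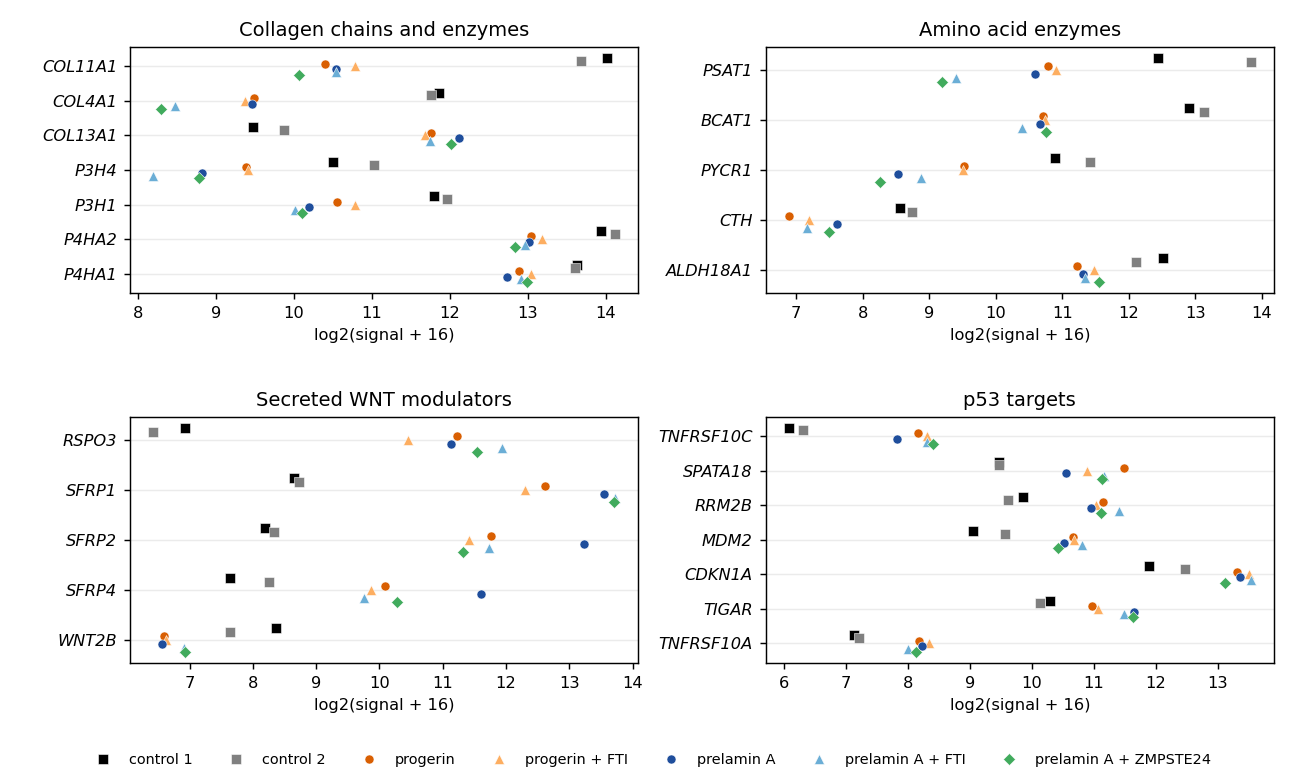
Signal on each array as log2(signal + 16) for called members of gene lists in 4 panels, with squares for the 2 controls and the other markers for the 5 lamin arrays. Collagen chains and collagen processing enzymes share a panel. SLC7A14, a called member of the amino acid list that rose (5.60), is not drawn. Collagen and amino acid enzymes lie left of the controls and p53 targets right of them; COL13A1 (2.19) and WNT2B (-1.28) go against the other members of their panels.

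Enzymes of amino acid synthesis were among the falls. Of 31 transporters and enzymes tested, 5 fell (16.1% against 0.849% of all genes) and 1, SLC7A14, rose (3.23% against 2.02%). All 5 lamin arrays lay below both controls for 16 (51.6% against 12.3%) and above for 2 (6.45% against 11.9%), with a median log2 difference of -0.92. BCAT1, the cytosolic branched-chain aminotransferase, was 7621 and 8959.7 on the controls and 1661, 1688, 1610.1, 1334 and 1703 with the lamins. The lamin arrays were tightly grouped far below the controls, and the log2 difference was -2.36 ± 0.16 (SE, adjusted p = 0.000836). PSAT1, which makes phosphoserine, was 5514 and 14601 on the controls and 1754, 1906, 1527, 659.7 and 567 with the lamins, a log2 difference of -2.96 ± 0.59 (SE, adjusted p = 0.0462). PYCR1, of proline synthesis, was 1878 and 2709 against 718, 715, 353, 454 and 289 (-2.21, adjusted p = 0.0289), and CTH, of the cysteine pathway, was 363 and 409 against 102, 129.7, 179, 127 and 164 (-1.38, adjusted p = 0.0198), both as log2 differences. ALDH18A1, which starts proline synthesis from glutamate, was 5816 and 4380.5 against 2368 to 3000.3 (-0.92, adjusted p = 0.0372).

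The controls themselves differed in this list, with a median control 1 minus control 2 of -0.55 on the log2 scale. The list's median was -1.01 without control 1 and -0.39 without control 2. PSAT1 lost its call in all 7 fits that left out an array (adjusted p of 0.0593 to 0.296), and BCAT1 kept it in all 7 (0.00347 to 0.0163). Members below both controls but not called had controls far apart, such as ASNS, asparagine synthetase, at 2058 and 10067 on the controls and 395 to 985 with the lamins (-2.71, adjusted p = 0.0814), PHGDH, the first enzyme of serine synthesis, at 1279 and 4428 against 362 to 903 (-2.09, adjusted p = 0.107), and MTHFD2, of mitochondrial folate metabolism, at 4459 and 10632 against 1055 to 2835 (-1.99, adjusted p = 0.0641).

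ATF4 and C/EBP factors bind a composite element in the promoters of many amino acid response genes. The letters TGATGNAA, searched on both strands from 250 bases before to 50 after the RefSeq start site, were in 6 of 85 promoters of genes called lower (7.06%), 2 of 191 of genes called higher (1.05%) and 1.81% of the 10351 promoters of all genes tested. The 8 matches are shown with their surroundings because, of 6 patterns searched, this one had the largest ratio between its share in the lower genes and in all genes. Each is a 40-base window of GRCh38.p14 on the gene's own strand, with the matched letters in capitals. The 6 genes called lower come first.
ASPN, chr9:92482528-92482567, minus strand: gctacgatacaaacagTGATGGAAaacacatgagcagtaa
BCAT1, chr12:24949126-24949165, minus strand: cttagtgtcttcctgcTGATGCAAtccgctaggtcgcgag
DYRK4, chr12:4590030-4590069, plus strand: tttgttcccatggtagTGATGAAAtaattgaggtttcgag
KCNT2, chr1:196608514-196608553, minus strand: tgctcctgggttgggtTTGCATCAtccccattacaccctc
LINC02086, chr17:48642475-48642514, plus strand: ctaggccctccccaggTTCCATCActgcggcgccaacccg
PPP1R15B, chr1:204412021-204412060, minus strand: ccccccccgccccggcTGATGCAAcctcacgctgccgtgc
MTLN (called higher), chr2:110212737-110212776, minus strand: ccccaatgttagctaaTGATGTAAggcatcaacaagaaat
RNF182 (called higher), chr6:13924259-13924298, plus strand: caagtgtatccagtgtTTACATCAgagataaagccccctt

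BCAT1 was the only called amino acid gene among the 8, and the windows of PSAT1, CTH and ALDH18A1 did not hold these letters. No window was found for PYCR1, so it was not searched. PPP1R15B, a subunit of the phosphatase that reverses translation arrest, was 2078 and 1851 on the controls and 945 to 1229 with the lamins, a log2 difference of -0.84 ± 0.16 (SE, adjusted p = 0.0396). DYRK4, a kinase, was 961 and 1003 against 373 to 544, a log2 difference of -1.04 ± 0.18 (SE, adjusted p = 0.0258). A match is a stretch of letters, and binding was not measured. The CCAAT box letters (CCAAT) were in 40% of promoters of lower genes, 34% of higher genes and 36.4% of all, the GC box (GGGCGG) in 63.5%, 64.9% and 68.7%, the E-box (CACGTG) in 8.24%, 9.42% and 10.3%, the AP-1 letters (TGANTCA) in 3.53%, 6.28% and 4.72%, and the TATA box (TATAAA) in 7.06%, 8.38% and 5.99%.

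Secreted modulators of WNT signals were among the strongest rises. Of 14 tested, 4 rose (28.6% against 2.02% of all genes) and 1 fell (7.14% against 0.849%), with a median log2 difference of 0.66. RSPO3, which raises WNT receptor levels through LGR receptors, was 105 and 69.8 on the controls and 2377, 1378, 2214, 3908 and 2951 with the lamins, a log2 difference of 4.58 ± 0.37 (SE, adjusted p = 0.00217). SFRP1, a secreted decoy for WNT ligands, was 386 and 410.3 against 6285, 5038, 11955, 13552 and 13372, a log2 difference of 4.49 ± 0.42 (SE, adjusted p = 0.00392). The list's median was 0.78 without control 1 and 0.43 without control 2. All 3 prelamin A arrays held more SFRP1 signal than both progerin arrays, and all 5 were far above the controls.

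SFRP2 and SFRP4, of the same decoy family, rose most with prelamin A alone. SFRP2 was 277 and 305 on the controls and 3455, 2724, 9652, 3396 and 2547 with the lamins, a log2 difference of 3.63 ± 0.49 (SE, adjusted p = 0.0115), and SFRP4 was 184 and 289.7 against 1076, 921, 3091, 846 and 1229, a log2 difference of 2.37 ± 0.49 (SE, adjusted p = 0.0496). SFRP2 lost its call without either control and SFRP4 in all fits but the one without the prelamin A array (adjusted p of 0.0131 to 0.208). WNT2B, the only ligand called, fell from 315 and 183 to 79.1 to 106 (-1.28, adjusted p = 0.0310, as a log2 difference). Of 24 WNT receptors and targets, CCND1, cyclin D1, rose from 3372 and 4603 to 12145, 12075, 9480, 11921 and 10947, a log2 difference of 1.51 ± 0.18 (SE, adjusted p = 0.00727), and ROR1, a WNT receptor, rose from 567 and 542 to 812 to 1181 (0.89, adjusted p = 0.0451). Of 26 genes of the TGF-beta and BMP pathway the inhibitors BAMBI, from 445 and 326 to 926 to 1719.9 (1.70, adjusted p = 0.0195), and FST, from 3529 and 4405 to 6244 to 8597 (0.96, adjusted p = 0.0460), rose and 0 fell, with FST losing its call without any 1 array (up to 0.201). Called higher were 8.33% of the WNT receptors and targets and 7.69% of the TGF-beta and BMP genes, against 2.02% of all genes.

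Several targets of p53, the factor that answers DNA damage, rose with the lamins. Of 28 tested, 7 rose (25% against 2.02% of all genes) and 0 fell. Above both controls lay 15 (53.6% against 11.9%) and below 0 (against 12.3%). The median log2 difference was 0.66, against -0.03 over all genes. CDKN1A, the cyclin-dependent kinase inhibitor p21, was 3789 and 5658 on the controls and 10102, 11553, 10495, 11820 and 8859 with the lamins, a log2 difference of 1.18 ± 0.20 (SE, adjusted p = 0.0275). MDM2, the ligase that degrades p53, was 514 and 744 against 1601, 1622, 1450.5, 1769 and 1349, a log2 difference of 1.30 ± 0.19 (SE, adjusted p = 0.0154). RRM2B, a ribonucleotide reductase subunit for DNA repair, was 909 and 766 against 2242, 2069.9, 1962, 2704 and 2198, a log2 difference of 1.40 ± 0.17 (SE, adjusted p = 0.00767). In these 3 genes the lamin arrays lay above both controls and near each other.

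TNFRSF10C, a decoy receptor for TRAIL, was 51.6 and 63.5 on the controls and 272, 299.6, 209.6, 302 and 324 with the lamins, a log2 difference of 2.01 ± 0.19 (SE, adjusted p = 0.00392). SPATA18, of mitochondrial quality control, was 697 and 690.3 against 2854, 1874, 1477, 2279 and 2218 (1.57, adjusted p = 0.0198), the TRAIL receptor TNFRSF10A was 124 and 132.7 against 241 to 307 (1.00, adjusted p = 0.0154), and TIGAR, a fructose bisphosphatase, was 1239 and 1107 against 1986 to 3175 (1.14, adjusted p = 0.0476), as log2 differences. Other members went elsewhere, with BAX at 1166 and 1616 on the controls and 1232 to 2905 with the lamins (0.37, adjusted p = 0.654) and FAS at 3344 and 5006 against 3472 to 4419.8 (-0.10, adjusted p = 0.842). CDKN1A kept its call in 2, MDM2 in 6 and SPATA18 in 3 of the 7 fits that left out an array (adjusted p of at most 0.135, 0.0802 and 0.145). The list's median was 0.64 without control 1 and 0.65 without control 2.

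Of 15 cell cycle inhibitors and senescence genes, 3 rose (20% against 2.02% of all genes) and 0 fell. Beside CDKN1A these were CDKN1C, the inhibitor p57, from 86.1 and 101 on the controls to 329, 359.9, 857, 486 and 377 (2.09, adjusted p = 0.0263), and the transcription factor ETS2, from 438 and 349 to 731 to 1001 (1.11, adjusted p = 0.0195). CDKN2A, which encodes p16 and ARF, was 755 and 1195 on the controls and 430.5 to 751 with the lamins (-0.70, adjusted p = 0.236). None of 54 replication and mitosis genes was called. With all lamin arrays, 1 lay below both controls (1.85% against 12.3% of all genes) and 0 above (against 11.9%). Their median log2 deviation from the control mean was 0.27 with progerin and -0.58 with prelamin A, while the controls differed by 0.53.

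Inflammatory mediators fell at some genes and rose at others. PTGS2, the inducible cyclooxygenase, was 6043 and 8181 on the controls and 645, 561, 1940.1, 398 and 1424 with the lamins, a log2 difference of -3.05 ± 0.59 (SE, adjusted p = 0.0421). IL6 was 10434 and 7979.5 against 1351, 1763, 1312, 771 and 2213, a log2 difference of -2.69 ± 0.37 (SE, adjusted p = 0.0129). The eosinophil chemokine CCL26 rose from 127 and 86.5 to 1150.4, 1138, 545, 467 and 2529.9, a log2 difference of 3.03 ± 0.61 (SE, adjusted p = 0.0462). IL6 and CCL26 were the called members among 29 senescence-associated cytokines and chemokines, whose median turned from -0.22 without control 1 to 0.22 without control 2, and IL6 lost its call without either control (adjusted p of at most 0.07997). CCL26 kept its call in 3 and PTGS2 in 1 of the 7 fits that left out an array (adjusted p of up to 0.273 and 0.255). Called higher and lower were 3.45% and 3.45% of the 29 cytokines and chemokines, against 2.02% and 0.849% of all genes.

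Of 37 interferon response genes, TRIM22, an antiviral ligase, rose from 5586 and 4282 to 9196 to 11890 (1.10, adjusted p = 0.0189) and ISG20, an exonuclease, fell from 297 and 182 to 70.3 to 121 (-1.24, adjusted p = 0.0406). The list's median log2 difference was -0.62, and the controls differed by 0.94. Without control 1 the median was 0.00 and without control 2 it was -0.99, so it rested on 1 control. CIITA, the master regulator of HLA class II genes, rose from 5.14 and 12.1 to 43.2 to 124 (1.99, adjusted p = 0.0213) and was the only called member of 8 antigen presentation genes. With both controls under 100, CIITA was tested only because a lamin array reached it. Called higher were 12.5% of the antigen presentation genes and 2.7% of the interferon genes, against 2.02% of all genes. Called lower were 2.7% of the interferon genes, against 0.849%.

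Of 21 adipogenic and fatty acid use genes, 4 rose (19% against 2.02% of all genes) and 0 fell, and these were CD36, PDK4, FABP3 and APOD. PDK4, which turns glucose oxidation down, was 27.7 and 34.1 on the controls and 299.8, 176, 389.8, 166 and 199 with the lamins, a log2 difference of 2.41 ± 0.33 (SE, adjusted p = 0.0125). FABP3, a fatty acid carrier, was 102 and 33.2 against 324, 272, 383, 295 and 639 (2.32, adjusted p = 0.0312), and APOD, a lipocalin of quiescent fibroblasts, was 125 and 85.2 against 481, 364, 456, 278 and 345 (1.72, adjusted p = 0.0144), as log2 differences. PDK4 lost its call without either control (adjusted p of at most 0.0864), FABP3 kept it in 2 of the 7 fits that left out an array, and APOD lost it without control 2 (0.130). CD36 and PDK4 had both controls under 100 and were tested only because lamin arrays reached it.

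Of the 5 adipocyte markers examined none was called, and only LEP and CIDEC reached the signal needed to be tested. FABP4, ADIPOQ and PLIN1 were at most 46.5, 35.4 and 19.3 on all 7 arrays, while the hormone LEP was 1099 and 85.0 on the controls and 1497, 1572, 202, 582 and 5266 with the lamins, which overlaps (1.72, adjusted p = 0.550), and CIDEC, of lipid droplets, was 126 and 147 against 102 to 159. Their summed signal was 281 to 1264 on the controls and 422 to 5415 on the lamin arrays, most of it LEP where it was highest, and the part of adipocyte RNA in the rise of these genes was not tested.

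Among 15 enzymes of amines, alcohols and aldehydes, MAOA and EPHX2, an epoxide hydrolase, rose, the latter from 11.1 and 47.1 to 132.7 to 302 (2.27, adjusted p = 0.0263), and ALDH1B1 fell from 900.3 and 938 to 428 to 538 (-0.90, adjusted p = 0.0213). Among 34 oxidative stress and selenoprotein genes, SELENOP rose and GPX7, a peroxidase of the endoplasmic reticulum, fell from 2488 and 2886 to 964 to 1361 (-1.18, adjusted p = 0.0177). Called higher and lower were 2.94% and 2.94% of these 34 and 13.3% and 6.67% of the 15 enzymes. Of all genes 2.02% were called higher and 0.849% lower. PFKFB4, a regulator of glycolysis, fell from 910.1 and 935 to 387, 317, 339, 296 and 293.4 (-1.46, adjusted p = 0.00493) and was the only called member of 27 hypoxia and glycolysis genes. Of these 27, 10 lay below both controls (37% against 12.3% of all genes) and 0 above (against 11.9%). FNTB, the beta subunit of the farnesyltransferase that FTI inhibits, fell from 147 and 104 to 46.6, 60.9, 51.5, 50.1 and 34.9 (-1.12, adjusted p = 0.0333), on arrays with and without FTI, and was the only called member of 15 protein prenylation genes. The values in brackets are log2 differences and adjusted p, and FNTB kept its call in 1 of the 7 fits that left out an array (adjusted p of up to 0.164). Called lower were 3.7% of the hypoxia and glycolysis genes and 6.67% of the prenylation genes, against 0.849% of all genes.

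Membrane enzymes and channels were among the rises. ENPP5, an ectoenzyme of the nucleotide pyrophosphatase family, was 33.7 and 22.7 on the controls and 583, 542, 631, 610.5 and 749 with the lamins, a log2 difference of 3.86 ± 0.18 (SE, adjusted p = 0.000223). Its neighbour ENPP4 was 80.9 and 68.1 against 474, 572, 339.7, 269.9 and 496 (2.26, adjusted p = 0.00934), and ENPP2, autotaxin, which makes lysophosphatidic acid, was 4543 and 3667 against 14619, 13715, 7099.8, 11764 and 15939 (1.57, adjusted p = 0.0461), both as log2 differences. These were the 3 called members of 14 ectonucleotidases and purinergic genes (21.4% higher against 2.02% of all genes), with 0 lower. ENPP5 and ENPP4 had both controls under 100 and were tested only because lamin arrays reached it. Of 22 potassium and other ion channels 4 rose (18.2% against 2.02% of all genes) and 1 fell (4.55% against 0.849%). Among the called channels, KCND2, CLCA2 and CACNB2 had both controls under 100, and KCNT2 had all lamin arrays under 100. These channels were tested only because the other group reached 100. KCND2, a channel of the A-type current, was 34.8 and 22.4 against 236, 204, 323, 438 and 287 (2.78, adjusted p = 0.00493).

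The other channel genes called were CLCA2, a regulator of chloride conductance, from 31.8 and 18.1 to 135 to 832 (3.12, adjusted p = 0.0489), CACNB2, a calcium channel subunit, from 14.2 and 22.3 to 67.5 to 113 (1.65, adjusted p = 0.0101), KCNJ8, of ATP-sensitive potassium channels, from 240.2 and 347 to 627 to 1412 (1.61, adjusted p = 0.0429), and KCNT2, a sodium-activated potassium channel, which fell from 94.8 and 112 to 16.7 to 41.2 (-1.49, adjusted p = 0.0181). CPNE8 was the only called member of 17 copines, annexins and S100 genes, although 8 of the 17 lay above both controls (47.1% against 11.9% of all genes). IGFBP4, an IGF carrier, rose from 7007 and 9043 to 13987 to 17035 (1.01, adjusted p = 0.0218), alone among 18 genes of the IGF axis. Called higher were 5.88% of the copines, annexins and S100 genes and 5.56% of the IGF genes, against 2.02% of all genes.

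Of 28 neuronal genes tested, 4 rose (14.3% against 2.02% of all genes) and 0 fell, namely STMN2, DCLK1, INA and ENC1. The other 24 did not pass, and 10 of the 28 lay above both controls (35.7% against 11.9% of all genes) and 4 below (14.3% against 12.3%). INA, the neuronal filament protein internexin, was 12.8 and 5.200 on the controls and 270.0, 507, 303, 545 and 442 with the lamins, a log2 difference of 4.07 ± 0.31 (SE, adjusted p = 0.00148). ENC1, a kelch protein of ectodermal and neural cells, was 505 and 359.8 against 1226, 1412, 1677, 2108 and 1699 (1.87, adjusted p = 0.00934), and the guidance ligand SEMA6D rose from 34.0 and 47.6 to 161 to 240.1 (1.97, adjusted p = 0.00493) as the only called member of 24 guidance genes. Of 15 cadherins CDH10 rose from 206 and 219 to 919, 1002, 909, 1305 and 1672 (2.33, adjusted p = 0.00558) and CDH18 fell from 1156 and 563 to 143 to 312 (-1.78, adjusted p = 0.0460), the latter losing its call without any 1 array (up to 0.197). Values in brackets are log2 differences and adjusted p. DCLK1, INA and SEMA6D had both controls under 100 and were tested only because lamin arrays reached it. Called higher were 4.17% of the guidance genes and 6.67% of the cadherins, against 2.02% of all genes. Called lower were 6.67% of the cadherins, against 0.849%.

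According to the methods the viruses were packaged in an embryonic kidney line, which expresses INA too. The 4 packaging cell markers INA, NEFL, NEFM and PAX2 summed to 115 and 143 on the controls and 463 to 963 on the lamin arrays, with INA called and the other 3 not. NEFL was 29.7 and 34.4 on the controls and 49.4 to 264 with the lamins, NEFM 29.7 and 16.2 against 36.7 to 123, and PAX2 71.1 and 58.7 against 29.6 to 106, the last overlapping. Whether RNA of packaging cells had a part in the rise of neuronal genes was not tested.

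Of 43 other mesenchymal transcription factors 3 rose (6.98% against 2.02% of all genes) and 2 fell (4.65% against 0.849%). EBF3 rose from 422 and 241 to 853 to 1264 (1.59, adjusted p = 0.0237), FOXO1, a forkhead factor held in the cytoplasm by insulin signals, from 112 and 83.7 to 216 to 315 (1.27, adjusted p = 0.0156), and NR2F1, an orphan nuclear receptor, from 442 and 419 to 840.1 to 1179 (1.11, adjusted p = 0.0192). FOXP1 fell beside LHX9, from 4418 and 5003 to 1621 to 2651 (-1.25, adjusted p = 0.0346). Of these FOXP1 kept its call in 1 of the 7 fits that left out an array, FOXO1 in 6, NR2F1 in 5 and EBF3 in 4. None of 19 HOX genes tested was called.

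**Figure D4:**
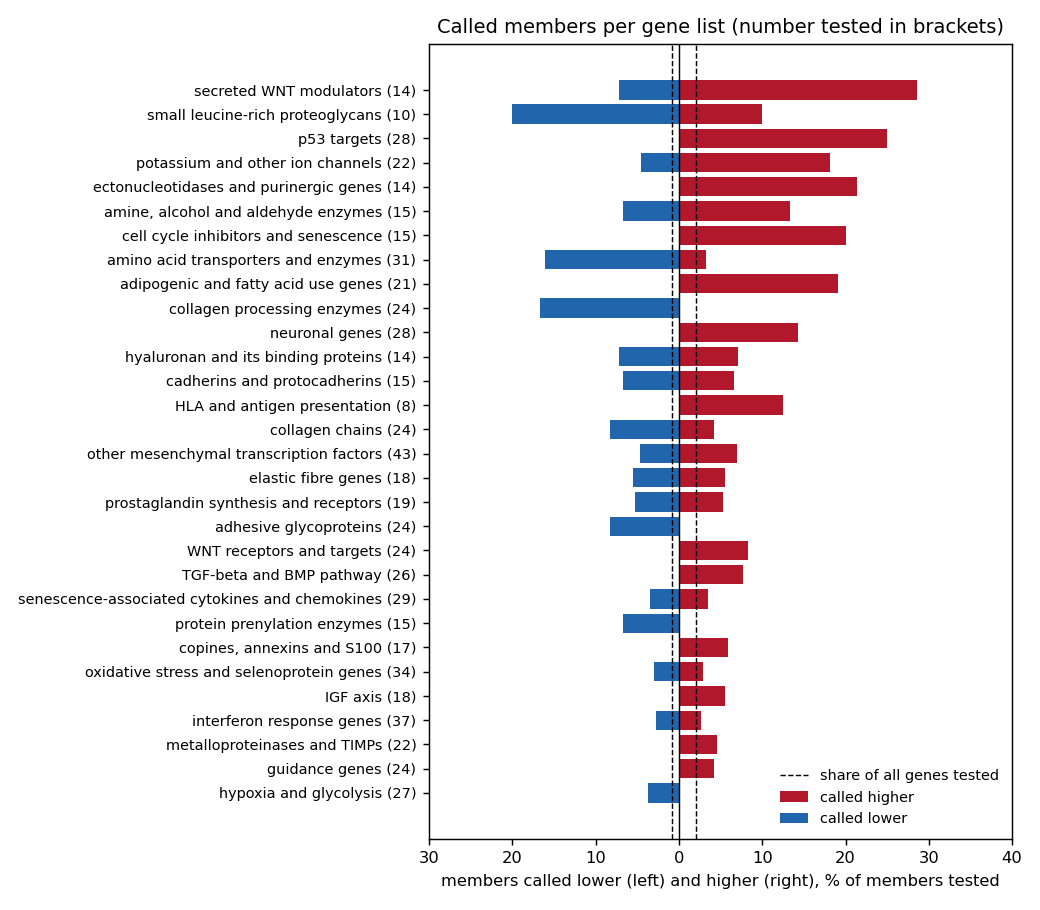
Share of tested members called lower (blue, left) and higher (red, right) at an adjusted p under 0.05 in the 30 gene lists with at least 1 call, with the number tested in brackets and dashed lines at the shares of all genes (0.849% and 2.02%). Secreted WNT modulators and p53 targets reach 28.6% and 25% higher, and collagen processing enzymes 16.7% lower with none higher. The lists were chosen with earlier results of these data known, so the shares describe them and test nothing.

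Among 44 lists examined 30 had at least 1 called member and 14 had none. Those without a call held 24 integrins and laminins, 20 contractile and myofibroblast genes, 19 complement genes, 24 growth factor receptors and RAS feedback genes, 19 immediate early and AP-1 genes, 13 Notch pathway genes, 27 cholesterol and fatty acid synthesis genes, 23 lamin and nuclear envelope genes, 25 unfolded protein response genes, 40 cytosolic ribosomal proteins, 50 oxidative phosphorylation subunits and 20 signalling phosphodiesterases, G proteins and RGS genes, beside the replication and HOX genes. In the unfolded protein response list 12 of 25 lay below both controls (48% against 12.3% of all genes), with a median log2 difference of -0.36. The 50 oxidative phosphorylation subunits had a median of -0.04, near that of all genes. The list medians turned sign without 1 or the other control in 9 of the 44 lists.

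Single markers of endothelial cells and leukocytes rose. Of the other markers of those types, PECAM1, CD3E and LCP1 were tested and not called. The rest of those measured stayed under a signal of 100 on every array and were not tested. TEK, the angiopoietin receptor of endothelial cells, was 23.5 and 2.19 on the controls and 285, 344, 167, 186 and 279.7 with the lamins, a log2 difference of 3.28 ± 0.37 (SE, adjusted p = 0.00567), while PECAM1 was 156 and 92.3 against 88.0 to 133.3 and VWF, CDH5, KDR and TIE1 were at most 70.0, 35.7, 54.4 and 12.01 on all arrays. A dimmer TEK probe set overlapped the controls, at 6.21 and 46.4 against 38.3 to 121 (1.07, adjusted p = 0.314, as a log2 difference). CD14, a receptor for lipopolysaccharide best known on monocytes, was 87.2 and 55.3 on the controls and 329, 198, 320.4, 311 and 575 with the lamins, a log2 difference of 2.00 ± 0.36 (SE, adjusted p = 0.0319), while PTPRC, which marks all leukocytes, was at most 55.5. The summed signal of 6 endothelial markers was 199 to 275 on the controls and 375 to 508 on the lamin arrays, and that of 4 leukocyte markers 212 to 325 and 358 to 686.

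Of 6 keratinocyte markers measured 1 reached a signal of 100 on some array. This was KRT10, a keratin of differentiating epidermis, at 10671 and 7555 on the controls and 4979.8 to 6516 with the lamins, below both controls on every lamin array but not called (-0.63, adjusted p = 0.137, as a log2 difference), while KRT5 and KRT14, of basal keratinocytes, were at most 8.98 and 12.3. None of 4 melanocyte markers reached 100, with TYR, PMEL and MLANA at most 99.7, 88.9 and 72.6.

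The called genes were also described array by array. For the genes called higher the median log2 deviation from the control mean was 1.64 with progerin, 1.56 with progerin + FTI, 1.85 with prelamin A, 1.75 with prelamin A + FTI and 1.76 with prelamin A + ZMPSTE24. For the genes called lower it was -1.13, -1.22, -1.27, -1.36 and -1.27 in the same order. These genes were called because all 5 lamin arrays lay together away from the controls, so the likeness of the medians follows in part from that choice and says nothing of what FTI or ZMPSTE24 changed.

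**Figure D5:**
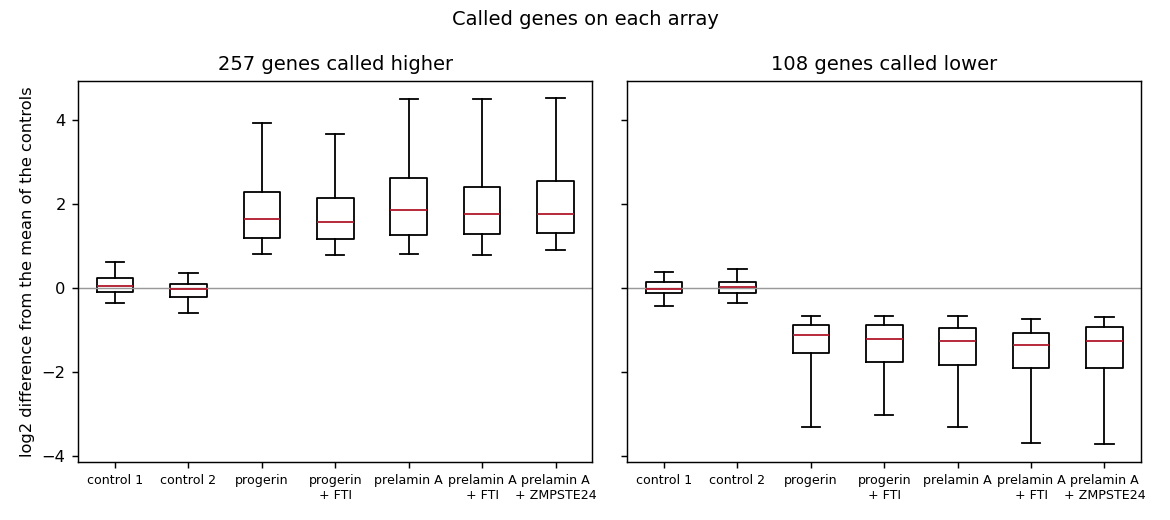
Log2 difference of each array from the mean of the 2 controls for the 257 genes called higher (left) and the 108 called lower (right), with boxes from the lower to the upper quartile, red lines for medians and whiskers from the 5th to the 95th percentile. Medians of the lamin arrays range from 1.56 to 1.85 on the left and from -1.36 to -1.13 on the right, beside controls centred at 0 by construction.

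The lamin array nearest to the controls was most often progerin + FTI in the genes called higher and progerin in those called lower. Among the 257 genes called higher, progerin + FTI was the lamin array nearest to the controls for 85 and progerin for 49, against 48, 47 and 28 for prelamin A, prelamin A + FTI and prelamin A + ZMPSTE24. The farthest array was prelamin A for 77, prelamin A + ZMPSTE24 for 73, prelamin A + FTI for 63, progerin for 30 and progerin + FTI for 14. Among the 108 called lower, progerin was nearest for 33, progerin + FTI and prelamin A for 25 each, prelamin A + ZMPSTE24 for 17 and prelamin A + FTI for 8. The farthest of these was prelamin A + FTI for 37, prelamin A + ZMPSTE24 for 28, prelamin A for 25, progerin + FTI for 10 and progerin for 8. All 3 prelamin A arrays lay above both progerin arrays for 83 of the genes called higher and below both for 17. In those called lower they lay below both for 31 and above both for 8. Over all 12726 genes the counts were 2721 above and 3055 below, and these differences between lamins were not tested. The nearest and farthest arrays were not counted over all genes. Their counts among the called genes therefore have no background here and describe only those genes.

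Most other probe sets of the called genes lay on the same side as the one shown. Of 227 other probe sets of genes called higher, 169 had all 5 lamin arrays above both controls (74.4% against 10.4% of all other probe sets) and 78 were called higher (34.4% against 1.04%), in a fit of 24392 probe sets. Of 84 other probe sets of genes called lower, 61 were below both controls (72.6% against 9.38%) and 23 were called lower (27.4% against 0.386%). None was called in the opposite direction. They read the same RNA, so they check the probe sets and not the samples.

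In HAPLN1 the other 3 probe sets had log2 differences of -4.26, -3.88 and -3.89, in SFRP1 the other 2 had 3.70 and 4.78, and in DCLK1 the other 3 had 5.44, 3.13 and 3.08. All of these lay on the same side of both controls on every lamin array. MDM2 was less even, with 7 other probe sets of log2 differences from 0.48 to 1.84, of which 2 overlapped the controls. TEK, FABP3, CACNB2, ALDH1B1 and EBF3 were among other called genes with a probe set that overlapped the controls. Its log2 difference was 1.07, 1.04, 0.92, -0.79 and 0.09 in that order.

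Some called genes lay next to each other in the genome. Of 12688 neighbouring pairs among the genes tested, 25 were called together (0.197%), 19 with both higher, 4 with both lower and 2 in opposite directions. Whether this is more than single calls would give was not tested, and the pairs named here were chosen after their values were seen. ENPP4 (chr6:46129989-46146688) and ENPP5 (chr6:46159185-46170980) were both called higher, as were NBEA and DCLK1 on chromosome 13, ABCA8 and ABCA9 on chromosome 17, CCND2 and TIGAR on chromosome 12, TTR and B4GALT6 on chromosome 18 and SFRP4 and EPDR1 on chromosome 7. OMD (chr9:92412380-92424471) and ASPN (chr9:92456205-92482506) were both called lower. The opposite pairs were JUP, called higher, beside P3H4, called lower, on chromosome 17 and FOXP1, called lower, beside EIF4E3, called higher, on chromosome 3. All positions are of RefSeq genes on GRCh38.p14.

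The partners changed by unequal amounts. NBEA, an anchoring protein of neuronal membranes, was 299.9 and 219 on the controls and 530.4 to 839 with the lamins, a log2 difference of 1.39 ± 0.24 (SE, adjusted p = 0.0282) beside the 5.16 of DCLK1. CCND2, cyclin D2, was 228 and 144 against 839, 846, 1155, 1187 and 2206, a log2 difference of 2.58 ± 0.38 (SE, adjusted p = 0.0170). ABCA8, a lipid transporter, was 46.9 and 32.6 against 441, 381, 251, 254 and 595 and ABCA9 4.90 and 6.94 against 70.3, 77.6, 78.4, 62.9 and 100.0, with log2 differences of 2.78 ± 0.34 (SE, adjusted p = 0.00794) and 2.09 ± 0.18 (SE, adjusted p = 0.00258). TTR, the carrier of thyroxine and retinol-binding protein, was 19.5 and 7.21 against 45.8 to 120.5 (1.70, adjusted p = 0.0457, log2), a dim signal beside B4GALT6.

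On chromosome 6, SLC25A27, a mitochondrial uncoupling protein, and CYP39A1, an oxysterol hydroxylase, were divergent neighbours whose start sites lay 157 bases apart. SLC25A27 was 85.1 and 32.6 on the controls and 276, 219, 245, 219 and 168 with the lamins, a log2 difference of 1.77 ± 0.30 (SE, adjusted p = 0.0263), and CYP39A1 was 31.7 and 60.9 against 118, 104, 117, 127 and 136, a log2 difference of 1.17 ± 0.21 (SE, adjusted p = 0.0310). Both were above the controls on every lamin array. The 256 bases that the promoter windows of both genes share are shown on the plus strand, which SLC25A27 follows, with a GC box and a CCAAT box in capitals.
SLC25A27 and CYP39A1, chr6:46652769-46653024: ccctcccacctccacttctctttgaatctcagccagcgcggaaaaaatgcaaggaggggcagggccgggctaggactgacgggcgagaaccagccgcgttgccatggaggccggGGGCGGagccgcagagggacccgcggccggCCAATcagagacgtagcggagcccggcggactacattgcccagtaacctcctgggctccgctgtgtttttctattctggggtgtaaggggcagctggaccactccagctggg

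Called genes were found on all 22 autosomes and the X chromosome. The share called was highest on chromosome 18, with 10 higher and 1 lower of 188 genes (5.85%), and lowest on chromosome 19, with 1 higher and 4 lower of 864 (0.579%), against 2.87% over all.

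Which genes were called depended on single arrays, the controls most. In fits that left out 1 array, 55 of the 257 genes called higher and 14 of the 108 called lower kept their call each time. Of the 87 called genes named by rule, 32 did so, among them SLC7A14, SELENOP, TMTC1, STMN2, RSPO3, SFRP1, B4GALT6, ENPP5, CPNE8, MAOA, INA and CCND1 among the rises and HAPLN1, SCRG1, CH25H, COL11A1, OMD, MXRA5 and BCAT1 among the falls. PSAT1, P4HA1, FST and CDH18 lost it each time. WNT2B, ROR1, PTGS2, SFRP4, ASPN, SPOCK1, ISG20, FOXP1, FNTB and ENPP2 kept it once, RAB27B, P3H4, CDKN1A, IGFBP4, FABP3, ALDH1B1, CLCA2 and KCNJ8 in 2 of the 7 fits, and LHX9, SPATA18, CDKN1C, ETS2, CIITA, CCL26, EPHX2 and PYCR1 in 3. Among the genes whose loss is not given above, GPX7, ENPP4 and KCNT2 lost their calls without either control (adjusted p of at most 0.148, 0.0903 and 0.148), as did BAMBI and CTH (0.164 and 0.159), which also lost them without prelamin A + ZMPSTE24 and prelamin A + FTI respectively. RRM2B, TRIM22 and ENC1 lost theirs without control 2 (0.07998, 0.153 and 0.0896) and CACNB2 without control 1 (0.0666). The highest adjusted p among the called genes named by rule in these fits was 0.296, for PSAT1. The call was kept by 104 and 22 genes without control 1, and by 74 and 21 without control 2.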

How the data were processed

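The data deposited by the authors are linear intensity values for total RNA hybridised to Affymetrix U133 Plus 2.0 arrays. The values were the signal of MAS 5.0 software, listed by the submitters' processing notes with no version. The signals had a trimmed mean of 500.07 on every array when 2% of probe sets were trimmed at each end. This is not the scaling target that the methods state, so the deposited signals, and the minimum of 100 used here, are on a scale whose target was not settled; a common factor cancels in differences but for the pseudocount and that minimum. Without detection calls and probe-level data, the study's S-score test was not run.

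Groups came from the labels, and the title of the prelamin A + FTI array leaves out prelamin A, which its source label names. Of 54675 probe sets, 62 were array controls, and the platform annotation gave 41091 a single gene, 1801 several and 11721 none; 41037 of the first were found in RefSeq of GRCh38.p14, which gave symbols and positions. Probe sets of a single gene were kept where some array reached a signal of 100, and the brightest on average stood for its gene, giving 12726 genes, 3 of them not shown. limma 3.58.1 in R 4.3.3 compared the 5 lamin arrays with the 2 controls on log2(signal + 16), with 5 degrees of freedom left among the arrays and 2.61 from the prior, and a gene was called at an adjusted p (Benjamini-Hochberg) under 0.05. Errors are limma standard errors, and the number of arrays limits the precision.

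The test was tried first on simulated data. The named genes were the 12 largest rises with all lamin arrays at 100 or more and the 12 largest falls with both controls at 100 or more, the 5 of smallest p in each direction, up to 4 called members per direction in each of 44 gene lists, LMNA, ZMPSTE24 and FOXQ1, and the 4 genes at the border of the rule; other genes were named after their values were seen. The rule, the members and the lists were chosen with earlier results of these data known. Promoter letters were searched with Python 3.11.15 in RefSeq windows, found for 10351 of 12723 genes. The alternatives tried were a pseudocount of 1 or 64, centring on array medians or quantile normalization, no filter or a minimum of 100 on the mean signal, all probe sets, an intensity trend, robust variances, line or 6 conditions in the design, other call rules and leaving out each array.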

Additional observations from a re-analysis of the deposited data

Results flagged for a closer look

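Among the 94 genes named by rule, 4 had 1 lamin array far from the other 4, measured as the gap to the nearest value over the whole range of the 5, and chance gives about 1 such gene in 20. FOXQ1 was highest with prelamin A at 7676, against 773 to 1401 on the other lamin arrays, a gap of 0.743 of the range. SFRP2 was highest on the same array at 9652, against 2547 to 3455 (0.771), and SFRP4 at 3091, against 846 to 1229 (0.713). BCAT1 was lowest with prelamin A + FTI at 1333.5, against 1610 to 1703 (0.771), and even this spread was small beside its distance from the controls at 7621 and 8960.

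Probe sets without a single gene in the platform annotation were outside the comparison. Of 4427 of them tested together with the others in a fit of 28809 probe sets, 22 were called higher and 19 lower on the lamin arrays. Among the 24392 probe sets of a single gene, in their own fit, the calls were 335 and 114. The largest rise among the 4427 went from 235 and 1364 on the controls to 7145 to 14817 with the lamins, in a probe set the annotation gives no gene.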

How the results depend on the processing

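No paired analysis was possible because each lamin condition had 1 array and the numbers of the 2 controls match no lamin array. The calls (257 higher, 108 lower) and the genes on the same side (1517 above, 1560 below) held within 1.5 times under quantile normalization, median centring, pseudocounts of 1 and 64, a mean signal of at least 100, an intensity trend, robust variances, line as a term, and an added fold over 2. With 6 conditions as separate levels, which leaves the controls as the only residual, 30 and 8 were called. The fold over 2 with an unadjusted p under 0.05 gave 535 and 267. Without a filter on dim probe sets 181 and 60 were called, and taking all probe sets instead gave 335 and 114 calls, with 2734 above and 2654 below. A gap of at least 1 left 165 above and 40 below.

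Leaving out 1 array gave 88 to 224 genes called higher and 24 to 79 lower, with 1662 to 3194 above and 1729 to 3399 below. The lowest counts came without control 2 (88 and 24) and without control 1 (135 and 48), when the lone control was assumed to vary like the lamin arrays. Calls also moved without progerin (160 and 55), prelamin A + FTI (162 and 36), prelamin A + ZMPSTE24 (145 and 44) and progerin + FTI (52 lower). LMNA, at 0.00 on the log2 scale, ranged from -0.29 without control 1 to 0.30 without control 2, with -0.12 without progerin and -0.10 without progerin + FTI. Of the named genes no other turned sign under any alternative run. The cause of these shifts was not tested. The median of all genes shifted by -0.01 under quantile normalization and 0.01 under centring. Of 44 list medians, 9 turned sign without 1 control and 1 under either normalization. With 5 arrays against 2, a gene that was not called may still differ.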

Other observations

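TERT, the catalytic subunit of telomerase, was listed at 210.0 and 591 on the controls and 41.8, 54.9, 44.1, 59.7 and 11.8 on the lamin arrays, in the order used above, a log2 difference of -2.74 ± 0.48 (SE, adjusted p = 0.0299). Its controls lay far apart, and every lamin array was under the signal minimum of 100. Without detection calls, whether the TERT probe set read TERT RNA or background was not tested. Whether TERT kept its call when an array was left out is not given here. TNFRSF21, a death receptor on chromosome 6, was 9.07 and 70.4 against 519, 474, 1218, 531 and 838, a log2 difference of 3.88 ± 0.53 (SE, adjusted p = 0.0125). GPR27, an orphan receptor gene that overlaps the end of EIF4E3, was 41.3 and 27.2 against 160, 144, 410.3, 449 and 342, and EIF4E3 was 339 and 219 against 877, 830.0, 743, 637 and 909, with log2 differences of 2.54 ± 0.47 (SE, adjusted p = 0.0355) and 1.49 ± 0.22 (SE, adjusted p = 0.0154). A dimmer GPR27 probe set went the other way, at 93.3 and 115.5 on the controls and 8.80 to 89.1 with the lamins, and was not called (-0.87, adjusted p = 0.471, as a log2 difference). MTLN, a mitochondrial microprotein gene, was 1.67 and 5.66 against 124, 126, 152, 152 and 59.1, a log2 difference of 2.77 ± 0.32 (SE, adjusted p = 0.00647). These genes were chosen after their values were seen.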
